A study of Mus musculus with 4 samples.

Results

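TRAV12 is a family of variable segments of the T-cell receptor alpha chain. Its members here were chosen by the V segment name of each deposited contig, a receptor transcript rebuilt from the reads of 1 cell barcode. A contig was taken when it was marked productive, belonged to the alpha locus (TRA) and had a name starting with TRAV12, TRAV12D or TRAV12N. This gave 20 chains in 20 cells, out of 181 productive TRA chains in 167 cells, and they used 5 of the 54 TRAV segments found. The family and its recurrent chain of TRAV12-2 with TRAJ26 were picked from measured values of these same libraries, so their frequencies are descriptions and carry no test.

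The study concerned retinoic acid signaling and immune escape in IDH-mutant gliomas. C57BL6 mice aged 6 weeks had 50000 neurosphere cells placed in the striatum and then received either all-trans retinoic acid (ATRA), 10 mg/kg into the peritoneum every other day, or its control. Tumors were taken out at signs of disease together with adjoining brain, and cells with the leukocyte surface protein CD45 were sorted. T-cell receptors were read in 1 library per treatment with a 5-prime single-cell kit, which counts molecules by unique molecular identifiers (UMIs); the sources used here do not give the number of mice behind each, or the genotype of the neurospheres.

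A T-cell receptor pairs an alpha chain, joined from a V and a J segment, with a beta chain, joined from V, D and J segments. The junction forms the CDR3 loop, which mostly touches the peptide, while the V segment encodes the loops that mostly lie over the presenting molecule. In C57BL6 mice a stretch of the alpha locus is copied, and the copies of a segment carry the letters D and N in their names. A T cell can rearrange both of its alpha alleles, so 1 cell may hold a second alpha chain, productive or not.

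The control library held 159 contigs in 74 cells, with 382 UMIs on 108 productive chains. The ATRA library held 496 contigs in 160 cells, with 1841 UMIs on 308 productive chains. No barcode occurred in both (0 shared). All 20 TRAV12 contigs had a TRAJ segment, which their selection as productive TRA contigs implies, so this does not check the label. The alpha constant segment TRAC was named on 19 of them. With no replicate library, every interval below is a 95% one that covers counting error alone, and p-values between treatments were not computed. For a count of 0, the limit given is 3 counts over the number of cells, which is tighter than the exact interval.

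The sequences that carry the main result are the CDR3s of the recurrent alpha chain and of the TRBV20 beta chains found with it, as deposited. Capitals in the alpha lines mark the only base at which its forms differ. Capitals in the beta lines mark the bases from the 5′ end that are the same as in the first beta line (for the first line, the same as in the second).
TRAV12-2/TRAJ26 alpha, form 1: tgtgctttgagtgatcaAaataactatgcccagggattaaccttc
TRAV12-2/TRAJ26 alpha, form 2: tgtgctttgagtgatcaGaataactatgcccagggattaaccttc
TRBV20/TRBJ1-1 beta, with form 1: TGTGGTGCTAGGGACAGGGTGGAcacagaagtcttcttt
TRBV20/TRBJ1-6 beta, with form 2: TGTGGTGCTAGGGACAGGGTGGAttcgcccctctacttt
TRBV20/TRBJ1-1 beta, second sequence with form 1: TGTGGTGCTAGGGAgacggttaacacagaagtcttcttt

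One alpha CDR3 of 15 residues, joined from TRAV12-2 and TRAJ26, was carried by 8 of the 20 TRAV12 cells. In the control library 4 of the family's 6 cells had it, 66.7% (exact interval 22.3 to 95.7). In the ATRA library 4 of its 14 cells did, 28.6% (8.39 to 58.1). These intervals overlap. Of all cells with a TRA it made up 11.8% in control (3.30 to 27.5) and 3.01% in ATRA (0.825 to 7.52), a ratio of ATRA over control of 0.256 (0.0476 to 1.37). No other TRAV12 chain occurred in both libraries. Sharing was rare outside the family too, so this is no trait of TRAV12. The other alpha chains were 22 distinct sequences in control, 87 in ATRA and 108 over both libraries.

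The recurrent chain had 2 nucleotide forms that encode the same residues. The substitution from form 1 to form 2 is A18G, counted from 1 at the first base of the CDR3, and it lies in codon 6. Form 1 was found in 4 control and 2 ATRA cells, and form 2 in 0 control and 2 ATRA cells. Form 1 was thus the same to the base in both libraries, and form 2 was read in ATRA alone. A count of 0 in 34 control cells allows up to 8.82% by the limit of 3 counts, or 10.3% by the exact interval.

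In the ATRA library each form of the alpha chain came with 1 beta chain. The cells of each form were 1 deposited clonotype of 2 cells, so the match within a form is not made of separate observations. Both ATRA cells with form 1 carried the same TRBV20/TRBJ1-1 beta chain, with 2 and 1 UMIs. Both ATRA cells with form 2 carried a TRBV20/TRBJ1-6 beta chain, with 1 and 3 UMIs. These beta CDR3s share their first 23 of 39 bases and their first 8 of 13 residues, and differ after that as T9S, E10P, V11L and F12Y. TRBJ1-1 and TRBJ1-6 encode the end of the loop, where the differences lie.

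The 4 control cells with the recurrent alpha chain had 4 different sets of beta chains. The first carried the TRBV20/TRBJ1-1 chain of the ATRA cells, identical in all 39 bases, with 8 UMIs beside 4 UMIs for the alpha chain. The next carried another TRBV20/TRBJ1-1 chain of the same length with 2 UMIs, which differs in 4 bases and as D5E, R6T and D8N. That cell also held a beta chain under the fused name TRBV12-2+TRBV13-2, with 2 UMIs, whose CDR3 was found in 6 control cells in all and in 0 ATRA cells.

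The remaining pair of control cells rested on thin evidence for 1 chain each. In a cell with a TRBV19/TRBJ2-4 beta chain of 2 UMIs, the recurrent alpha chain had 1 UMI and 1 read. In a cell with the alpha chain at 3 UMIs and 66336 reads, the TRBV13-1/TRBJ2-3 beta chain had 1 UMI and 1 read. Chains with a single read were rare, 3 of 416 productive chains over both libraries, and 2 of the 3 were in these cells. Without chains of 1 read, an alternative set after the reads were seen, 2 of 3 control cells with the recurrent chain had TRBV20 and the third had no beta chain.

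TRBV20 was thus the beta segment of 6 of the 8 cells with the recurrent alpha chain, 75% (34.9 to 96.8). The 4 ATRA cells among them were 2 deposited clonotypes of 2 cells each. The 6 cells are therefore not separate observations, and the interval, which counts cells, is too narrow for clones. It was found in 0 of the 9 other TRAV12 cells with a beta chain, and in 1 of 134 cells with another alpha chain and a beta chain, 0.746% (0.0189 to 4.09). Among cells with a beta chain but no alpha chain, 2 of 67 used it, 2.99% (0.364 to 10.4). Over both libraries 9 cells used TRBV20, and all 9 beta CDR3s had 13 residues. Without the recurrent alpha chain were 3 of them, of which 2 had no alpha chain and 1 had a TRAV7-1 and a TRAV9-2 chain.

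**Figure D1:**
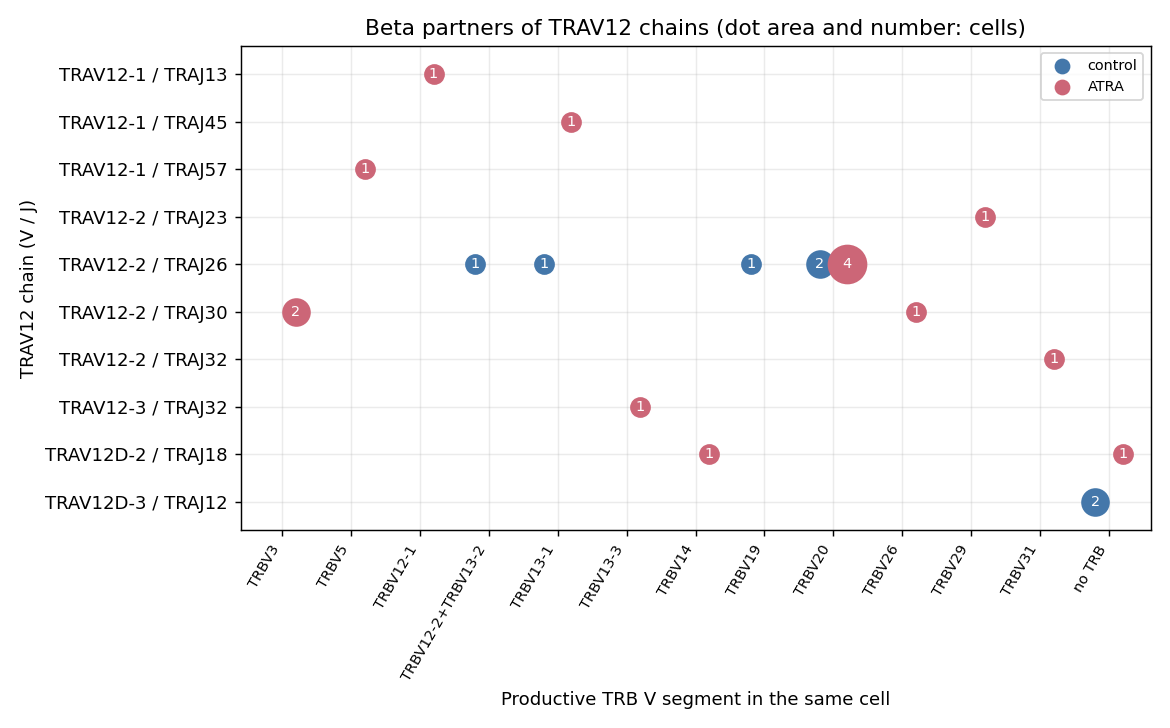
Beta V segments (x axis) found in the cells of each TRAV12 chain (y axis, V and J segment), with dot area and number giving cells in the control (blue) and ATRA (red) libraries. Cells with 2 beta chains appear at both, which holds for 1 control cell of TRAV12-2/TRAJ26 and 1 ATRA cell of TRAV12-2/TRAJ30. TRBV20 is found with TRAV12-2/TRAJ26 alone among these chains, in 2 control and 4 ATRA cells.

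TRAJ26 also occurred outside the family, in 3 ATRA cells and 0 control cells. These held 2 further chains, with TRAV4-2 in 2 cells and TRAV14D-1 in 1 cell. All 4 distinct productive TRAJ26 chains ended in the same 27 bases, or 9 residues. From the other end, the recurrent chain shared 14 bases with a nonproductive contig of the copy TRAV12D-2 joined to TRAJ16, which is outside the family as chosen here. This left 4 of its 45 bases between both shared stretches, and the A18G difference is the last of them. At that base the TRAV14D-1 chain matched form 1 and the TRAV4-2 chain matched form 2, so each form shared 28 end bases with 1 of them. No germline sequence of the segments was used, so a shared base may come from the segment or from the junction.

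By segment, TRAV12-2 led the family in both libraries. In control 4 of 34 cells with a TRA used it, 11.8% (3.30 to 27.5). In ATRA it was 8 of 133, 6.02% (2.63 to 11.5). All 4 control cells and 4 of the 8 ATRA cells carried the recurrent chain. Next in control came TRAV12D-3 with 2 cells, 5.88% (0.720 to 19.7). In ATRA the order went on with TRAV12-1 in 3 cells, 2.26% (0.468 to 6.45), TRAV12D-2 in 2 cells, 1.50% (0.183 to 5.33), and TRAV12-3 in 1 cell, 0.752% (0.0190 to 4.12). Neighbours in either order had overlapping intervals.

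Joined over their copies, TRAV12-2 segments were used by 4 control cells, 11.8%, and 10 ATRA cells, 7.52% (3.66 to 13.4). TRAV12-3 segments were used by 2 control cells, 5.88%, and 1 ATRA cell. TRAV12-1 segments were used by 0 control cells, which allows up to 8.82% with a floor of 3 counts, and by 3 ATRA cells. D copies were used by 2 cells in each library, and no productive chain was named for an N copy (0 of 34 and 0 of 133 cells, which allows up to 8.82% and 2.26%). Since copies are near-identical, the name given to a contig may move between them.

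RefSeq lists 10 TRAV12 segments in GRCm38.p6, all on chromosome 14, of which TRAV12-4 is a pseudogene. The D block comes first, with TRAV12D-2 at 52915915 to 52916426 and TRAV12D-3 at 52929789 to 52930282. The N block follows, from TRAV12N-1, which starts at 53155607, to TRAV12N-3, which ends at 53241244. After it come the segments without a letter, with TRAV12-1 at 53538266 to 53538738, TRAV12-2 at 53616397 to 53616914 and TRAV12-3 at 53621752 to 53622245. TRAJ26 lies at 54194490 to 54194549. TRBV20, the partner segment, lies on chromosome 6 at 41188273 to 41188977. These entries are annotated as V or J segments, and 4 listed V segments that are not pseudogenes (TRAV12D-1, TRAV12N-1, TRAV12N-2 and TRAV12N-3) gave no productive chain.

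**Figure D2:**
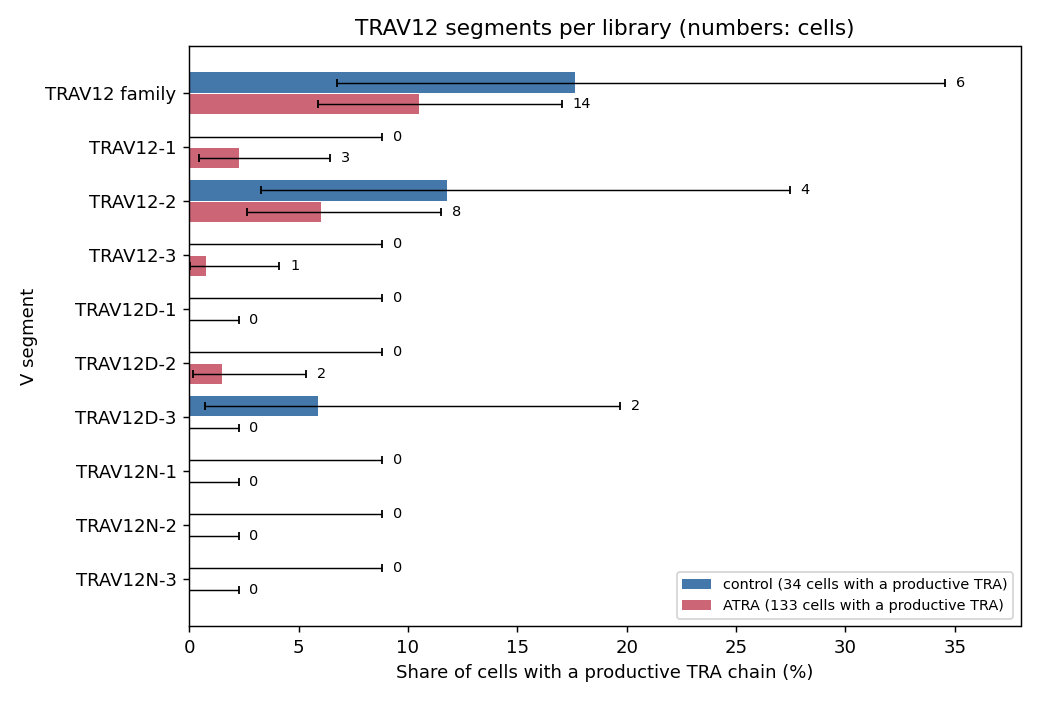
Share of cells with a productive TRA (x axis, percent) that used the family (top) or each TRAV12 segment (y axis) in the control (blue, 34 cells) and ATRA (red, 133 cells) libraries. Numbers are cells and lines are exact 95% intervals, or the limit of 3 counts where no cell was found; TRAV12-2 has the longest bar among the segments in both libraries.

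As a whole the family made up 17.6% of control cells with a TRA (6 cells, 6.76 to 34.5) and 10.5% in ATRA (14 cells, 5.88 to 17.0). The ratio of ATRA over control was 0.596 (0.215 to 1.89). The ratio moved both ways with the setting. It was 1.16 (0.248 to 10.9) without the recurrent chain and 1.24 (0.264 to 11.6) when each distinct chain counted once. It was 0.480 (0.157 to 1.74) with at least 2 UMIs per chain and 0.264 (0.0707 to 1.20) with at least 3, where 4 of 12 control cells and 8 of 91 ATRA cells were left in the family. Every one of these intervals included 1. Of the other TRAV families with at least 10 cells and a cell in each library, TRAV7 and TRAV9 had the nearest ratios. These were 0.724 (0.272 to 2.24) and 0.767 (0.265 to 2.70), or 0.28 and 0.36 away on the log2 scale, a likeness over only 2 libraries.

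The 20 chains were 11 distinct sequences. The control library had 2, the recurrent chain and TRAV12D-3/TRAJ12, and the ATRA library had 10. In ATRA the 14 cells used 8 TRAJ segments, which were TRAJ26 in 4 cells, TRAJ18, TRAJ30 and TRAJ32 in 2 cells each, and TRAJ13, TRAJ23, TRAJ45 and TRAJ57 in 1 cell each. TRAJ12 was found in the 2 control cells. Besides the recurrent chain, 3 chains were found in 2 cells each. Capitals below mark bases outside the stretches shared with another deposited contig, productive or not, of the same V segment (copies joined) or of the same J segment.
TRAV12-2/TRAJ30: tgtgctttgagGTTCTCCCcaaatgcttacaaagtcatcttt
TRAV12D-2/TRAJ18: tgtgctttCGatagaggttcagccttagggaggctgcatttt
TRAV12D-3/TRAJ12: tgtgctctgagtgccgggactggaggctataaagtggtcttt

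TRAV12-2/TRAJ30 was found in 2 ATRA cells, with 2 and 4 UMIs. Both held the same TRBV3/TRBJ2-1 beta chain with 8 UMIs, yet the deposited clonotype numbers kept them apart. The cell with 4 UMIs also held a TRAV3-3/TRAJ45 alpha chain of 5 UMIs and a TRBV26/TRBJ2-5 beta chain of 7 UMIs, and it was the only ATRA cell of the family with more than 1 beta chain. In the capitals above, this chain had 8 bases in neither shared stretch, the highest number in the family together with TRAV12-1/TRAJ57. That number depends on the sequences at hand for comparison, 8 for its V and 2 for its J segment. For TRAV12-1/TRAJ57 these were 3 and 5.

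TRAV12D-2/TRAJ18 was found in 2 ATRA cells, with 3 UMIs and 1 UMI. Both also held the same TRAV6N-7/TRAJ9 alpha chain, with 2 UMIs and 1 UMI, so this pair of productive alpha chains occurred together in both cells. One had a TRBV14/TRBJ1-3 beta chain of 3 UMIs and the other had no productive beta chain, and the deposited numbers again kept them apart. TRAJ18 is the joining segment of the invariant natural killer T-cell receptor, which uses TRAV11 and not TRAV12.

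TRAV12D-3/TRAJ12 was found in 2 control cells, with 3 and 2 UMIs and with 71430 and 75900 reads. Neither had a productive beta chain. One of them had a nonproductive TRBV19/TRBJ2-3 contig of 32 UMIs but 43 reads. The CDR3 of TRAV12D-3/TRAJ12 had 0 bases outside the shared stretches, and 2 chains of other V families differed from it by 1 residue, as A2V with TRAV9-2 in 1 control cell and as A5V with TRAV6N-6 in 1 ATRA cell. Capitals below mark their bases that differ from TRAV12D-3/TRAJ12, 3 of 42 in each. No other CDR3 of the 10 in the family had such a neighbour. Neighbours were looked for from the family's CDR3s only, so how usual they are among other alpha chains is not known here.
TRAV9-2/TRAJ12: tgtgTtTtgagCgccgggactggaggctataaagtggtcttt
TRAV6N-6/TRAJ12: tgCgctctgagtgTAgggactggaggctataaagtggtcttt

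The other 6 ATRA cells of the family each had a chain of their own. TRAV12-1 joined TRAJ13 (1 UMI, with TRBV12-1), TRAJ45 (2 UMIs, with TRBV13-1) and TRAJ57 (5 UMIs, with TRBV5). TRAV12-2 joined TRAJ23 (4 UMIs, with TRBV29) and TRAJ32 (3 UMIs, with TRBV31), and the latter cell also held a TRAV7D-5/TRAJ37 alpha chain of 3 UMIs. TRAV12-3 joined TRAJ32 as well (3 UMIs, with TRBV13-3). No beta V segment was repeated among these cells.

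Clone sizes depended on how a clone was named. By the deposited numbers, clonotypes of 2 or more cells held 33.3% of the family in control (2 of 6, 4.33 to 77.7) and 28.6% in ATRA (4 of 14, 8.39 to 58.1). The largest had 2 cells. In the cells with other alpha chains the shares were 32.1% of 28 (15.9 to 52.4) and 39.5% of 119 (30.7 to 48.9). By identical TRAV12 chain, all 6 control cells shared their chain with another cell of the library (100%, 54.1 to 100). In ATRA 8 of 14 did, 57.1% (28.9 to 82.3). These shares cannot be set against those of the other cells above, which use deposited numbers. Chains of the other cells also repeated, with 22 distinct among 28 in control and 84 distinct among 129 in ATRA. The 4 control cells with the recurrent chain had 4 deposited numbers, 1 cell each.

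A beta chain accompanied 4 of the 6 control chains, 66.7% (22.3 to 95.7). This became 2 of 5, 40%, with at least 2 UMIs per chain or without chains of 1 read. With at least 3 UMIs it became 1 of 4, 25%. These settings remove beta chains as well, which lowers the share by itself. In ATRA a beta chain accompanied 13 of 14, 92.9% (66.1 to 99.8), and 75% and 62.5% at the minimums of 2 and 3 UMIs. Among cells with other alpha chains, counted without these settings, the shares were 92.9% of 28 (control, 76.5 to 99.1) and 90.8% of 119 (ATRA, 84.1 to 95.3). Cells of the family had a median of 3.5 receptor UMIs in control against 4 in the other cells, and 8 in ATRA against 10. The 3 family cells without a beta chain were those of TRAV12D-3/TRAJ12 and 1 of TRAV12D-2/TRAJ18, all D copies. A second productive alpha chain was found in 0 control and 4 ATRA cells of the family, 28.6% (8.39 to 58.1), against 8.40% of the other ATRA cells (4.10 to 14.9), and the intervals overlap. A cell with 2 alpha chains has 2 chances to be counted in the family, and 2 of the 4 cells carried the same 2 chains.

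TRAV12 chains rested on few molecules. The 4 control cells with the recurrent chain had 1, 3, 4 and 5 UMIs for it, and the 4 ATRA cells had 2, 2, 3 and 5. The other 10 ATRA chains had from 1 to 5 UMIs, with a median of 3. Over the family the median was 3 in control (quartiles 2.25 and 3.75) and 3 in ATRA (2 and 3.75), while alpha chains of the other cells had medians of 2 (1 and 3) and 4 (2 and 5). The recurrent chain was thus neither above nor below the other TRAV12 chains in UMIs by more than their range.

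**Figure D3:**
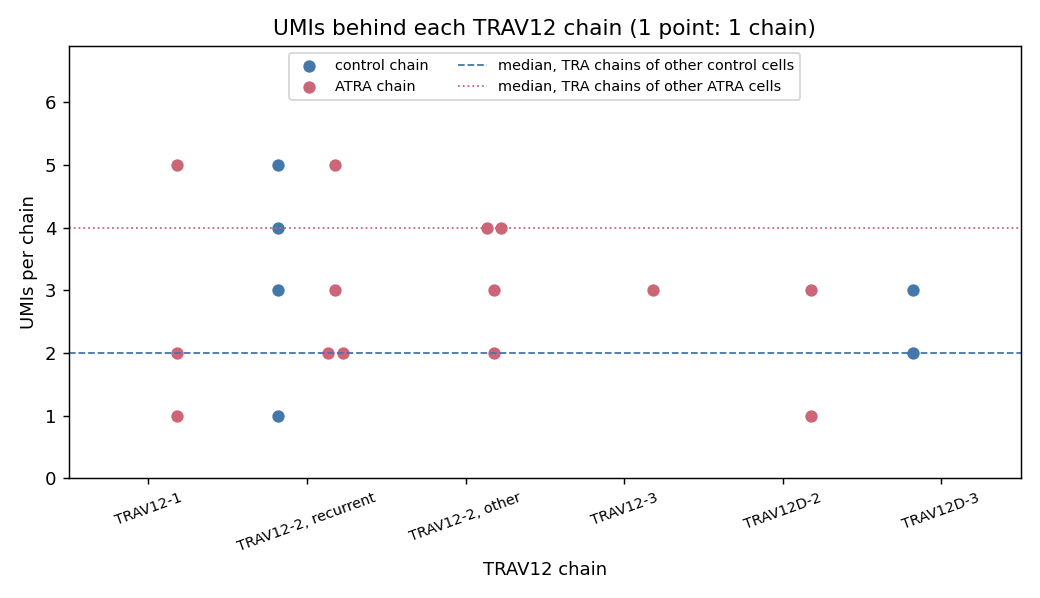
UMIs (y axis) of each TRAV12 chain by segment (x axis, with TRAV12-2 split into the recurrent chain and others), 1 point per chain, for control (blue) and ATRA (red), with lines at the median of the alpha chains of other cells in control (dashed, 2) and ATRA (dotted, 4). The recurrent chain ranges from 1 to 5 in control and from 2 to 5 in ATRA.

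CDR3 lengths of the 11 distinct chains ran from 12 to 16 residues, with a mean of 14.4 (SD 1.03). The 108 other distinct alpha chains ran from 9 to 17, with a mean of 13.8 (13.75, SD 1.46). These values join both libraries and count both forms of the recurrent chain. Within ATRA the mean was 14.4 over 10 TRAV12 chains and 13.9 over 84 chains of other cells. TRAV7 and TRAV9 chains both had 14.1 there. Within control it was 14.5 over 2 TRAV12 chains and 13.4 over 22 chains of other cells, with 12.2 for TRAV7 and 13.3 for TRAV9. None of the TRAV12 chains had 13 residues (0 of 11), the most frequent length of the others with 30 of 108, 27.8%. Lengths of 14 or 15 were found in 9 of 11 TRAV12 chains and 51 of 108 others. Net charge, counted as lysines and arginines minus aspartates and glutamates, ran from -1 to 2 in the family with a median of 1. The recurrent chain, in both forms, and TRAV12-1/TRAJ45 had -1, and the other 8 distinct chains were positive. Among other alpha chains 7 of 108 were negative.

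**Figure D4:**
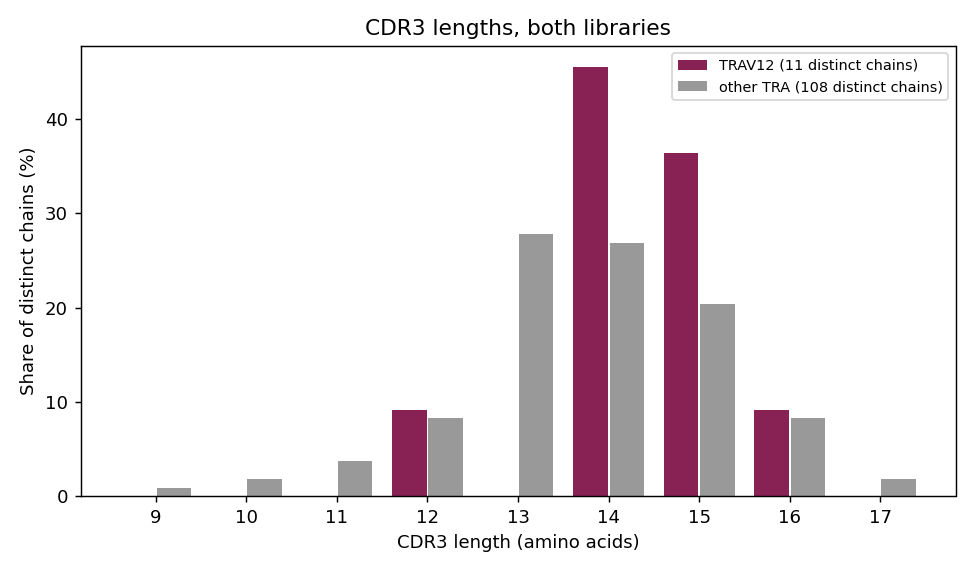
Share of distinct alpha chains (y axis, percent) at each CDR3 length (x axis, residues) for TRAV12 (purple, 11 chains) and all other V segments (grey, 108 chains), both libraries joined. TRAV12 chains are found at 12, 14, 15 and 16 residues, and at 14 or 15 in 9 of 11.

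The bases that no other contig of the same V or J segment shared numbered from 0 to 8 per TRAV12 chain, with a median of 3. These numbers depend on how many contigs there were to compare. They were 0 in TRAV12-2/TRAJ23 and TRAV12D-3/TRAJ12. In 9 of 11 distinct chains, 81.8% (48.2 to 97.7), the CDR3 began with Cys-Ala-Leu, against 22 of 108 others, 20.4% (13.2 to 29.2). The V segment encodes this start, which the family was chosen by. The exceptions were TRAV12-1/TRAJ57 and TRAV12D-2/TRAJ18, which had 7 and 8 bases in common with another contig of their V segment, against 10 to 14 in the others. The 14 is the match of the recurrent chain to a nonproductive contig.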

How the data were processed

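The deposited values were counts of UMIs and counts of reads per contig, with no normalization, per the file headers, beside segment names, CDR3s and clonotype numbers. Build GRCm38, Cell Ranger 3.1.0 and bcl2fastq 2.20.0 are listed per the submitters' processing notes; the filters the authors used are not given in the sources used here. All contigs were marked as cells and high confidence (0 were not). A chain was a productive contig with at least 1 UMI; cells with extra chains were kept and no doublet caller was run. Shares carry exact Clopper-Pearson intervals and ratios exact conditional intervals at 95%, from scipy 1.17.1 in Python 3.11.15, checked on simulated data. Intervals cover counting error only, and cells of 1 clone are not independent. No file column of per-sample values was left unmapped (0). The germline split planned for the junctions was replaced, after the files were seen, by shared stretches. These were the longest match of a CDR3's 5′ end to a TRA contig of the same V and another J, and of its 3′ end to one of the same J and another V family. Nonproductive contigs were included in this comparison. Of 26 segment names in these cells, 25 matched RefSeq symbols. The text names every TRAV12 segment, partners and chains with at least 2 cells, and the 2 most like families; single-cell chains were added after their values were seen. Members, lists and rules were chosen with earlier results of these data known. Gene expression, which 2 further libraries measured, is not analysed here. Alternatives were UMI minimums of 2 and 3, paired cells, cells without extra chains, other units and clone definitions, leaving out the recurrent chain, and, added later, chains with more than 1 read.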

Additional observations from a re-analysis of the deposited data

Results flagged for a closer look

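A TRAV12 segment was named on nonproductive contigs, a kind left out of the family above, in 11 of 160 ATRA cells, 6.88% (exact interval 3.48 to 12), and in 0 of 74 control cells, which allows up to 4.05%. They drew attention because this signal lay outside the productive chains and none was read in the control library. The ATRA interval reaches below the control limit, so a difference between the libraries was not shown at this depth. The 11 cells are also not separate observations, since 6 of them share 1 beta chain, described next. The ATRA library also held more nonproductive contigs in all, 188 against 51. None of the 11 cells was among the 20 with a productive TRAV12 chain.

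In 7 of these ATRA cells the contig was 1 TRAV12D-2/TRAJ16 sequence, identical in all 48 bases of its reported CDR3, with 1 to 8 UMIs and a median of 3. Capitals mark the 26 bases that end both distinct productive TRAJ16 CDR3s. In this contig they stop at base 41, which is 2 bases past a whole codon.
TRAV12D-2/TRAJ16, nonproductive: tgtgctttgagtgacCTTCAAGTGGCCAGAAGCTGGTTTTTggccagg
In 6 of the 7 cells it stood beside a TRBV5/TRBJ2-4 beta chain of 1 CDR3, which 8 ATRA and 0 control cells carried as a productive chain, and in 5 beside a TRAV6-6/TRAJ39 alpha chain. The seventh cell, where it had 1 UMI and 1 read, held neither chain.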

How the results depend on the processing

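Over 10 alternative settings, 94 of 104 values stayed within the counting interval of the value reported, and 10 did not; with so few cells those intervals are wide. Leaving out the recurrent chain took the control share of the family to 6.67%, its D copies to 100%, its cells with a beta chain to 0% and its cells in clonotypes of 2 or more to 100%, all in the 2 cells of TRAV12D-3/TRAJ12 that are left, and took the ATRA share in such clonotypes to 0%. In paired cells, which leave out those 2 cells, the control values were 100% for the recurrent chain, 0% for D copies and 0% in clonotypes of 2 or more. Naming clones by the TRAV12 chain put 100% of control cells in clones of 2 or more. With at least 3 UMIs per chain, which also removes beta chains, 62.5% of ATRA cells (5 of 8) and 25% of control cells (1 of 4) of the family had a beta chain. The ratio of family shares ran from 0.264 (3 UMIs) to 1.24 (distinct chains), and each interval included 1. The planned split against germline segments was not run, as no germline sequence was used here. No paired analysis was possible because each treatment had 1 library.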
